A study of Sus scrofa with 16 samples.

Results

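Neuropeptide precursor genes were followed in the hippocampus of newborn preterm pigs with and without necrotizing enterocolitis (NEC), a severe inflammation of the immature gut. The list held 10 genes, NPY, SST, VIP, CCK, PENK, PDYN, TAC1, CRH, VGF and CORT, and a table row was taken as a member when its pig Ensembl ID carried one of these symbols in a reference names table. Of these, 7 were found with 1 entry each among the 22815 entries of the expression table, NPY (ENSSSCG00000016718), VIP (ENSSSCG00000004078), CCK (ENSSSCG00000011277), PENK (ENSSSCG00000006243), TAC1 (ENSSSCG00000023592), CRH (ENSSSCG00000006215) and CORT (ENSSSCG00000027822). The IDs that the names table gives for SST, PDYN and VGF were not among the IDs of the table, and these 3 genes were not analysed here.

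RNA came from the left hippocampus of 16 pigs, with 1 library per pig. All were crossbred pigs delivered preterm by caesarean section and fed human donor milk in increasing amounts beside parenteral nutrition for about a week, a regimen under which NEC arises spontaneously in some animals, and none carried an engineered allele. The 5 No NEC pigs (2 female, 3 male) had no visible gut lesions, the 5 Co-NEC pigs (2 female, 3 male) had severe lesions only in the colon, and the 6 Si-NEC pigs (3 female, 3 male) had severe lesions in the small intestine, whether or not the colon was affected too. The pigs were grouped by lesions found at death, so no group was assigned to a treatment, and litters were not given in the labels.

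Neuropeptides are cut from larger precursor proteins in the secretory pathway, stored in dense-core granules and released mostly at high firing rates. In the hippocampus NPY, VIP, CCK and cortistatin (CORT) are best known from inhibitory GABAergic interneurons. Enkephalins (PENK), tachykinins (TAC1) and corticotropin-releasing hormone (CRH) are made by further interneurons and by some principal cells, and CRH has long been studied there as a peptide of early-life stress. In whole tissue, fewer cells of a type and less RNA per cell cannot be told apart.

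The deposited values are FPKM, fragments scaled by the authors to the length of the gene model and the size of the library, so levels of different genes can be set side by side per length. Depth per library is unknown, and summed FPKM ran from 544629 to 864931 per pig. No NEC pig 230-15 and Si-NEC pig 223-15 had the highest sums and correlated least with the rest across genes, at medians of 0.902 and 0.933 beside 0.949 or more in the other 14 pigs. Of the markers of the labelled tissue, SLC17A7, the glutamate transporter of excitatory neurons, had a mean of 582 FPKM and PROX1, the granule cell factor, 7.90 FPKM. Of 12 hypothalamic and pituitary markers listed, 9 hypothalamic ones were found, and the pituitary genes POMC, GH1 and PRL were not. All 9 were below the level needed for a test, with summed levels of 0.212 to 1.82 FPKM in No NEC, 0.439 to 0.752 in Co-NEC and 0.601 to 1.98 in Si-NEC pigs. GHRH, HMX2, HMX3 and OXT among them were listed at 0 in all 16 pigs, but a listed 0 can be a failed estimate, since 49 of 4038 entries averaging above 20 FPKM also had a 0 in some pig.

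CCK, NPY and PENK stood far above the other precursors. Mean levels over the 16 pigs were 159 FPKM for CCK, the most abundant peptide of the cortex and a marker of basket cells, and 152 FPKM for NPY, the peptide of many dendrite-targeting interneurons. PENK, the enkephalin precursor, averaged 77.2 FPKM. CORT followed at 17.6, TAC1 at 16.8, VIP at 14.8 and CRH at 9.84 FPKM. The level of NPY was above that of PENK, and the level of PENK above that of CORT, in 16 of 16 pigs, each with p = 3.05e-05 in a two-sided exact sign-flip permutation test, the smallest p that 16 pigs allow (9.16e-05 after adjustment over 6 neighbouring pairs). This test measures the spread between pigs only. A bias in the FPKM of a gene that all pigs share, such as an incomplete gene model, is not in its p. The other neighbours in this order did not differ beyond their spread, with adjusted p of 0.196 for CCK and NPY, 0.983 for CORT and TAC1, 0.196 for TAC1 and VIP and 0.228 for VIP and CRH in the same permutation test. CCK was above NPY in 10 of 16 pigs, and without pigs 223-15 and 230-15 the adjusted p of this pair was 0.0198.

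**Figure D1:**
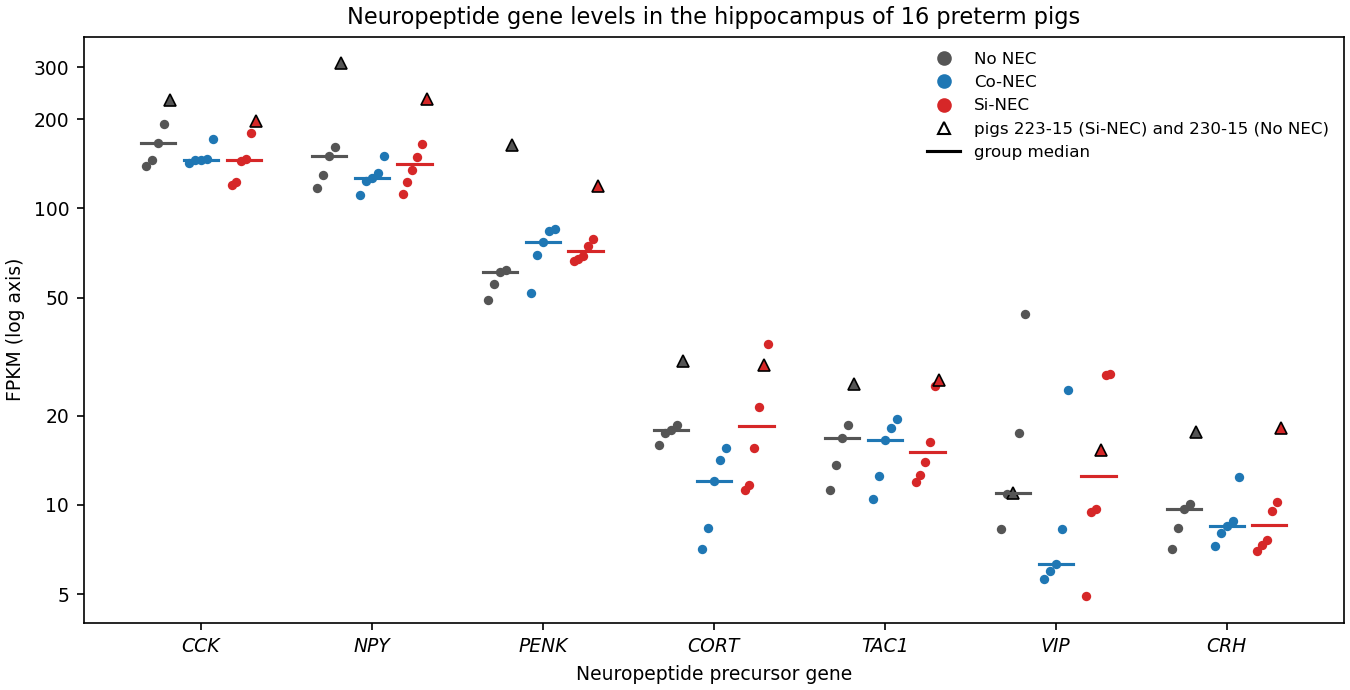
Levels of the 7 neuropeptide genes in FPKM (log axis), 1 symbol per pig, with a line at each group median for 5 No NEC, 5 Co-NEC and 6 Si-NEC pigs. CCK, NPY and PENK lie in an upper band with means of 77.2 to 159 FPKM, CORT in the 5 Co-NEC pigs lies under all 5 No NEC pigs, and the triangles (pigs 223-15 and 230-15) are the highest 2 pigs for CCK, NPY, PENK, TAC1 and CRH.

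Between the groups, no neuropeptide gene passed the test across all entries in any comparison. Over the 13590 entries averaging 0.5 FPKM or more, limma on log2(FPKM + 0.5) called 0 of 7 genes at a Benjamini-Hochberg adjusted p under 0.2 in each comparison, beside 0.00736% of all entries when Si-NEC was set against No NEC, 0.00736% when Co-NEC was, and 0.0147% between Si-NEC and Co-NEC. At an unadjusted p under 0.05, limma gave 0 of 7 genes between Si-NEC and No NEC (2.61% of all entries), 1 of 7 between Co-NEC and No NEC (3.44%) and 1 of 7 between Si-NEC and Co-NEC (5.64%). The gene was CORT in both. The mean log2 value was lower in Co-NEC than in No NEC for 6 of 7 genes (48% of all entries), with a median log2 difference of -0.19 beside 0.01 over all entries. The mean log2 value of Si-NEC was below that of No NEC for 5 of 7 (46.2% of all entries; medians -0.09 and 0.02), and the difference Si-NEC minus Co-NEC was above 0 for 6 of 7 (50.1% of all entries), with a median of 0.16. These comparisons share pigs, so their directions are not separate observations.

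CORT, whose product cortistatin resembles somatostatin and binds somatostatin receptors, had the clearest separation. Its level in the Co-NEC pigs was 7.11, 8.37, 12.03, 14.2 and 15.6 FPKM. In the No NEC pigs it was 15.97, 17.5, 17.8, 18.6 and 30.6 FPKM. Every Co-NEC pig lay below every No NEC pig, although the highest Co-NEC pig and the lowest No NEC pig were close. Groups that do not overlap in either direction were found for 1 of 7 neuropeptide genes and for 0.464% of all entries tested. The other comparisons had no such neuropeptide gene, beside 0.155% of all entries (Si-NEC and No NEC) and 0.545% (Si-NEC and Co-NEC). The group means were 11.5 ± 3.65 FPKM in Co-NEC (SD, n = 5) and 20.1 ± 5.95 FPKM in No NEC (SD, n = 5).

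The log2 difference of CORT, Co-NEC minus No NEC, was -0.80 (limma SE 0.24, 95% interval -1.33 to -0.27), a fold of 0.574 with an interval of 0.398 to 0.827. Its unadjusted limma p was 0.00663 and its p adjusted over all entries 0.812, so it did not pass. The two-sided exact permutation test gave p = 0.00794, the smallest that its 252 splits allow, and 0.167 after adjustment over the 21 tests of 7 genes in 3 comparisons. No single pig carried the difference, which lay between -0.92 and -0.64 when each pig was left out in turn, with the smallest size without No NEC pig 230-15. It was -0.70 among the 2 Co-NEC and 2 No NEC pigs whose number ends in 14 and -0.87 among the 3 and 3 whose number ends in 15, a suffix the labels do not explain. It was -0.40 in females (2 against 2) and -1.07 in males (3 against 3), and the limma interaction with sex was -0.67 (SE 0.48, unadjusted p 0.191, adjusted p 0.926).

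In the Si-NEC pigs CORT spread widely. The lowest, median and highest of the 6 levels were 11.2, 18.5 and 34.9 FPKM. The 3 highest pigs, at 21.4, 29.6 and 34.9 FPKM, lay above every Co-NEC pig and the other 3 lay within the Co-NEC range, so the groups overlapped. The log2 difference Si-NEC minus Co-NEC was 0.76 (limma SE 0.31, 95% interval 0.07 to 1.44, unadjusted p 0.0334, adjusted p 0.867), and the exact permutation p was 0.0671. Against No NEC the difference of the Si-NEC pigs was -0.05 (limma SE 0.30, 95% interval -0.71 to 0.61, exact permutation p 0.905).

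Related genes were set beside CORT. The interneuron genes GAD1, GAD2 and SLC32A1, which make and load GABA, were used as a scale, and on that scale the log2 difference of CORT between Co-NEC and No NEC was -0.75. Of the somatostatin receptors, SSTR1 averaged 36.0 FPKM in Co-NEC, 34.0 in No NEC and 36.0 in Si-NEC pigs, SSTR2 23.9, 24.4 and 23.6 FPKM, and SSTR3 10.3, 9.39 and 11.3 FPKM. No log2 difference of these 3 receptors exceeded 0.24 in size, and none passed the test. A marker of neighbouring tissue also differed in mean: TTR, the transthyretin gene of the choroid plexus, averaged 6.86 FPKM in Co-NEC and 15.2 in No NEC pigs (log2 difference -1.55, limma SE 0.83, unadjusted p 0.0908, adjusted p 0.812), with Co-NEC pig 255-15 listed at 0. The 4 choroid plexus markers found summed to 0.411 to 13.5 FPKM in Co-NEC, 5.38 to 23.8 in No NEC and 5.81 to 25.9 in Si-NEC pigs, with OTX2 and CLIC6 at means of 0.176 and 0.124 FPKM. Between Si-NEC and Co-NEC, 1 vessel marker and 1 striatal marker also had an unadjusted p under 0.05. The log2 difference was 0.48 for PECAM1, an endothelial gene (limma SE 0.18, unadjusted p 0.0200, adjusted p 0.858). It was 0.42 for ADORA2A, an adenosine receptor abundant in striatum (limma SE 0.18, unadjusted p 0.0394, adjusted p 0.867). Other genes of these lists had the opposite sign, with -0.28 for DCN, -0.27 for COL1A2, -0.13 for DRD1 and -0.13 for RARB. Of the 6 meningeal and vessel markers, 4 differences were above 0 and 2 below (median 0.03). Of 4 striatal markers tested, 2 were above 0 and 2 below (median -0.02). The 6 meningeal and vessel markers summed to 39.0 to 81.6 FPKM in No NEC, 38.2 to 63.1 in Co-NEC and 39.0 to 67.6 in Si-NEC pigs, and the 6 striatal markers to 18.3 to 38.1, 17.1 to 21.7 and 17.6 to 27.5 FPKM, with ISL1 listed at 0 in all pigs. The part of these tissues in the CORT values was not tested.

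**Figure D2:**
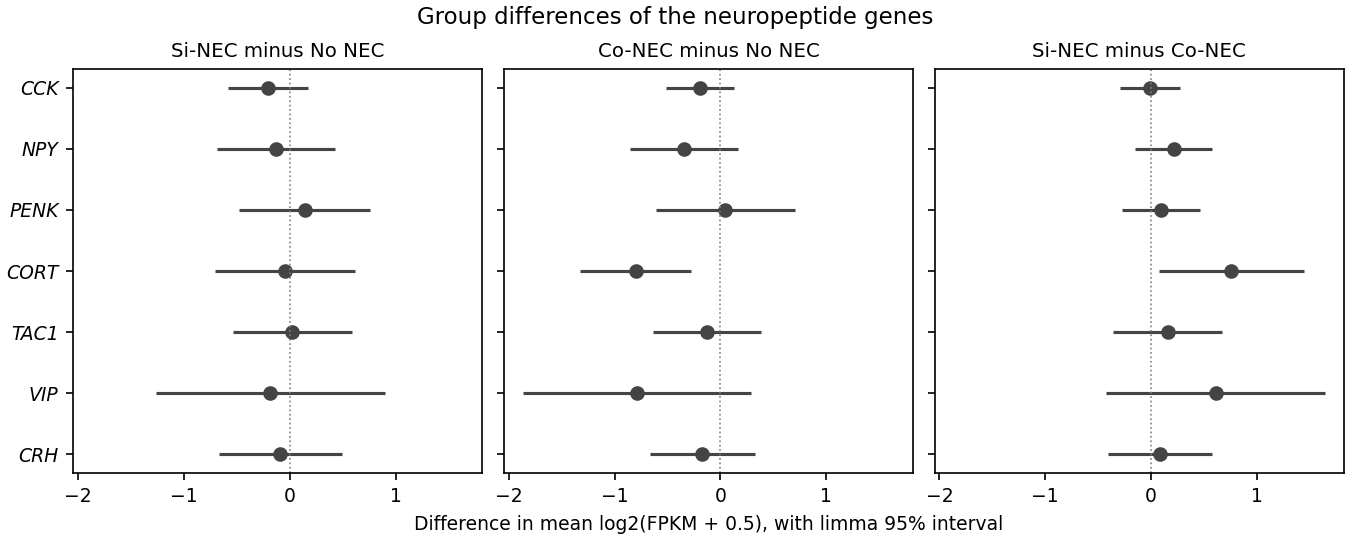
Differences in mean log2(FPKM + 0.5) of the 7 neuropeptide genes in each pairwise comparison, with limma 95% intervals, where 0 means no difference. Only the CORT intervals for Co-NEC minus No NEC (-1.33 to -0.27) and Si-NEC minus Co-NEC (0.07 to 1.44) leave out 0, before any adjustment for multiple tests.

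VIP, the peptide of interneurons that inhibit other interneurons, was the most variable of the 7 genes. In the No NEC pigs it was 8.32, 10.9, 10.99, 17.4 and 44.1 FPKM. In the Co-NEC pigs it was 5.61, 5.99, 6.33, 8.31 and 24.5 FPKM, and the 6 Si-NEC pigs ran from 4.92 over a median of 12.5 to 27.5 FPKM. Each group held mostly low pigs and 1 or 2 far above them, and all groups overlapped. In 4 of 5 Co-NEC pigs VIP lay below every No NEC pig, the closest at 8.307 beside 8.318 FPKM, and the fifth, pig 231-15, was above 4 of the 5 No NEC pigs.

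The highest pig held 8.96 times the VIP level of the lowest. The SD of log2(FPKM + 0.5) over the 16 pigs was 0.91, and 3.29% of all tested entries had a larger one. The log2 difference Co-NEC minus No NEC was -0.79 (limma SE 0.49, 95% interval -1.87 to 0.28, adjusted p 0.812, exact permutation p 0.198). Leaving out single pigs moved it from -1.16, without Co-NEC pig 231-15, to -0.41, without No NEC pig 253-15. Without pig 231-15 the unadjusted limma p was 0.0194, and no adjusted p under any single omission was below 0.620. Pig 231-15 had the highest VIP level of its group, and an unadjusted p without it does not allow for that choice. For Si-NEC minus Co-NEC the difference was 0.61 (limma SE 0.47, exact permutation p 0.290), or 0.98 without pig 231-15 (unadjusted limma p 0.0398). For Si-NEC minus No NEC it was -0.18 (limma SE 0.50, exact permutation p 0.740), and it ranged from -0.39 to 0.20 when single pigs were left out. Levels of the VIP receptors were low, with means of 1.43 FPKM (No NEC), 1.38 (Co-NEC) and 1.003 (Si-NEC) for VIPR1 and 1.60, 1.21 and 1.40 FPKM for VIPR2. ADCYAP1R1, the receptor of the VIP relative PACAP, was higher at 54.7, 68.7 and 63.8 FPKM, and none of the 3 receptors passed the test in any comparison.

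**Figure D3:**
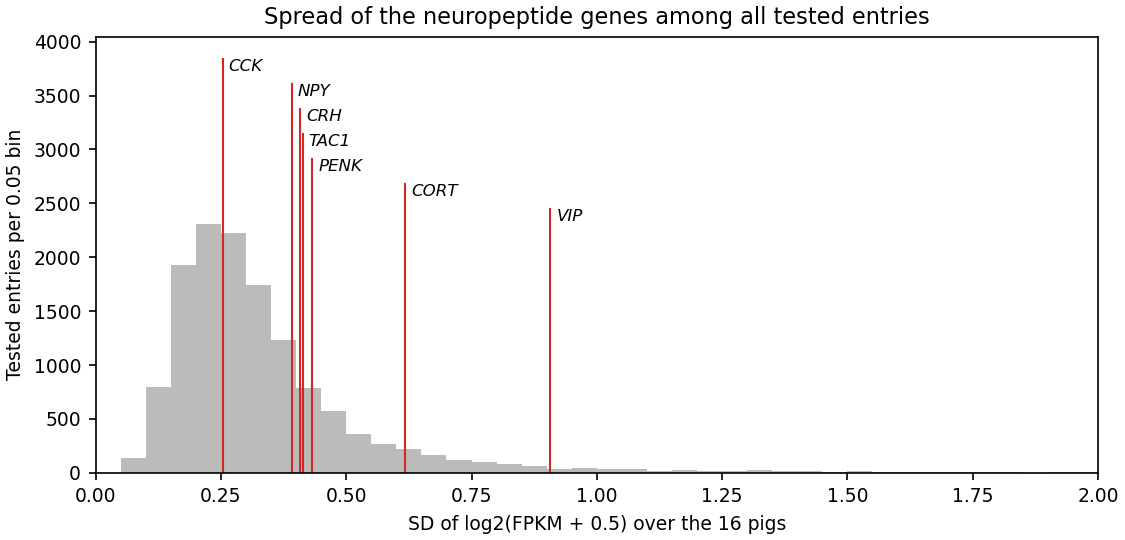
Grey bars count the 13590 tested entries by the SD of log2(FPKM + 0.5) over the 16 pigs, in bins of 0.05, and red lines mark the 7 neuropeptide genes; 91 entries with an SD above 2 lie beyond the axis. VIP (0.91) and CORT (0.62) sit in the upper tail, and CCK (0.25) lies left of the median of all entries (0.29).

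NPY did not differ in any comparison beyond the spread between pigs. It was 117, 129, 150, 161 and 309 FPKM in the No NEC pigs and 111, 124, 126, 131 and 150 FPKM in the Co-NEC pigs. In Si-NEC pigs the lowest, median and highest levels were 112, 142 and 234 FPKM. The groups overlapped almost fully apart from 1 high pig each in No NEC (230-15) and Si-NEC (223-15). The log2 difference Co-NEC minus No NEC was -0.34 (limma SE 0.23, 95% interval -0.85 to 0.17, exact permutation p 0.198), and -0.11 without pig 230-15. For Si-NEC minus No NEC it was -0.13 (limma SE 0.25, 95% interval -0.69 to 0.43, exact permutation p 0.645), and 0.10 without pig 230-15, so its sign rested on that pig. Of the NPY receptors, NPY1R averaged 14.6 FPKM in No NEC, 14.7 in Co-NEC and 16.1 in Si-NEC pigs, and NPY5R 12.5, 12.01 and 12.3 FPKM. NPY2R averaged 3.22, 4.67 and 5.01 FPKM, with log2 differences from No NEC of 0.50 in Co-NEC (limma SE 0.27, unadjusted p 0.0877, adjusted p 0.812) and 0.58 in Si-NEC (limma SE 0.28, unadjusted p 0.0619, adjusted p 1).

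CCK was the steadiest. The No NEC pigs held 139, 146, 167, 193 and 232 FPKM and the Co-NEC pigs 143, 146, 146, 147 and 172 FPKM. The Si-NEC pigs ran from 120 over a median of 146 to 197 FPKM. The ranges overlapped, and 4 of the 5 Co-NEC pigs lay between 143 and 147 FPKM. The coefficient of variation over the 16 pigs was 18.6%, against 73.6% for VIP and 45.2% for CORT. The log2 difference from No NEC was -0.19 in Co-NEC (limma SE 0.14, 95% interval -0.51 to 0.12, exact permutation p 0.270) and -0.21 in Si-NEC (limma SE 0.17, 95% interval -0.58 to 0.17, exact permutation p 0.266). Without pig 230-15 these were -0.09 and -0.10. The Si-NEC and Co-NEC pigs differed by -0.01 (limma SE 0.13, exact permutation p 0.926).

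PENK depended on a single No NEC pig. The No NEC levels were 49.2, 55.8, 60.8, 62.2 and 164 FPKM, the last in pig 230-15. The Co-NEC levels were 51.8, 69.9, 77.1, 84.1 and 85.3 FPKM, and the 6 Si-NEC pigs ran from 66.5 over a median of 71.8 to 119 FPKM. All 6 Si-NEC pigs and 4 of 5 Co-NEC pigs lay above the 4 lower No NEC pigs and below pig 230-15. With all pigs the log2 difference from No NEC was 0.14 in Si-NEC (limma SE 0.28, 95% interval -0.47 to 0.76, exact permutation p 0.643) and 0.05 in Co-NEC (limma SE 0.30, 95% interval -0.61 to 0.70, exact permutation p 0.929). Without pig 230-15 it was 0.45 in Si-NEC (unadjusted limma p 0.0177) and 0.35 in Co-NEC (unadjusted limma p 0.0374), and in no single omission did its adjusted p fall under 0.806. Without pigs 230-15 and 223-15 together the Si-NEC difference was 0.32 (limma SE 0.09, unadjusted p 0.00440, adjusted p 1). Pigs 230-15 and 223-15 were the 2 highest for PENK and were left out together after the values were seen. Leaving out such pigs narrows the spread, and the unadjusted p without them do not allow for that choice. The opioid receptors OPRK1 and OPRM1 averaged 5.93 and 0.358 FPKM in No NEC, 5.68 and 0.652 in Co-NEC and 5.84 and 0.502 in Si-NEC pigs, with no call.

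TAC1, the precursor of substance P, gave no separation. It was 11.3, 13.6, 16.9, 18.6 and 25.6 FPKM in the No NEC pigs and 10.5, 12.5, 16.6, 18.2 and 19.5 FPKM in the Co-NEC pigs. The Si-NEC pigs ran from 11.9 over a median of 15.1 to 26.3 FPKM, and the 3 ranges overlapped. The log2 differences were 0.03 for Si-NEC minus No NEC (limma 95% interval -0.53 to 0.59, exact permutation p 0.922), -0.13 for Co-NEC minus No NEC (limma 95% interval -0.64 to 0.38, exact permutation p 0.611) and 0.16 for Si-NEC minus Co-NEC (limma 95% interval -0.36 to 0.67, exact permutation p 0.556). The Si-NEC minus No NEC difference was 0.54 in females and -0.41 in males, and the interaction with sex was -0.95 (limma SE 0.47, unadjusted p 0.0726, adjusted p 0.439). In this interaction test 10.8% of all entries had an unadjusted p under 0.05, and TAC1 was not among them.

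CRH had the lowest mean of the 7. It was 7.10, 8.33, 9.65, 10.05 and 17.5 FPKM in the No NEC pigs and 7.24, 8.06, 8.50, 8.84 and 12.4 FPKM in the Co-NEC pigs. The Si-NEC pigs ran from 7.003 over a median of 8.54 to 18.2 FPKM, and all ranges overlapped. The log2 differences were -0.09 for Si-NEC minus No NEC (limma 95% interval -0.67 to 0.50, exact permutation p 0.719), -0.17 for Co-NEC minus No NEC (limma 95% interval -0.67 to 0.33, exact permutation p 0.548) and 0.08 for Si-NEC minus Co-NEC (limma 95% interval -0.41 to 0.57, exact permutation p 0.771). CRHBP, which binds and sequesters CRH, averaged 21.8 FPKM in No NEC, 17.4 in Co-NEC and 17.2 in Si-NEC pigs, and the receptor CRHR1 3.06, 3.28 and 2.44 FPKM, and neither passed the test.

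Sex made no difference that passed for these genes. Over the 16 pigs, with the group in the model, limma called 0 of 7 neuropeptide genes between males and females and 0.0515% of all entries, and at an unadjusted p under 0.05 it gave 3.25% of all entries and none of the 7. The largest estimate was that of VIP, a log2 difference male minus female of -0.61 (SE 0.40, 95% interval -1.46 to 0.23, unadjusted limma p 0.143, adjusted p 1), and the next was CORT at -0.32 (SE 0.24, unadjusted limma p 0.205). No interaction of group with sex was called for any of the 7 genes, beside 0.00736% of all entries for Si-NEC and 0% for Co-NEC, where limma gave 336 entries (2.47%) at an unadjusted p under 0.05.

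Pigs 223-15 and 230-15, a Si-NEC and a No NEC animal, shared a profile in these genes. They were the highest 2 of the 16 pigs for 5 of 7 genes, NPY, CCK, PENK, TAC1 and CRH, which was also the case for 23.2% of all tested entries, while they were the lowest 2 for 12.8% of all entries and none of the 7. CRH was 2.16 and 2.09 times its median of the other 14 pigs in pigs 223-15 and 230-15. NPY was 1.79 and 2.37 times and PENK 1.73 and 2.39 times the median of the other pigs. The smallest of these ratios were those of CCK, 1.35 and 1.59, and of VIP, 1.60 and 1.15, beside a median ratio of 1.10 for each pig over all tested entries. The 7 levels together summed to 639 and 789 FPKM in the 2 pigs. The Co-NEC pigs, which include neither, summed to 376 to 448 FPKM. The lowest and median sums were 362 and 432 FPKM in the No NEC group and 372 and 427 FPKM in the Si-NEC group.

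**Figure D4:**
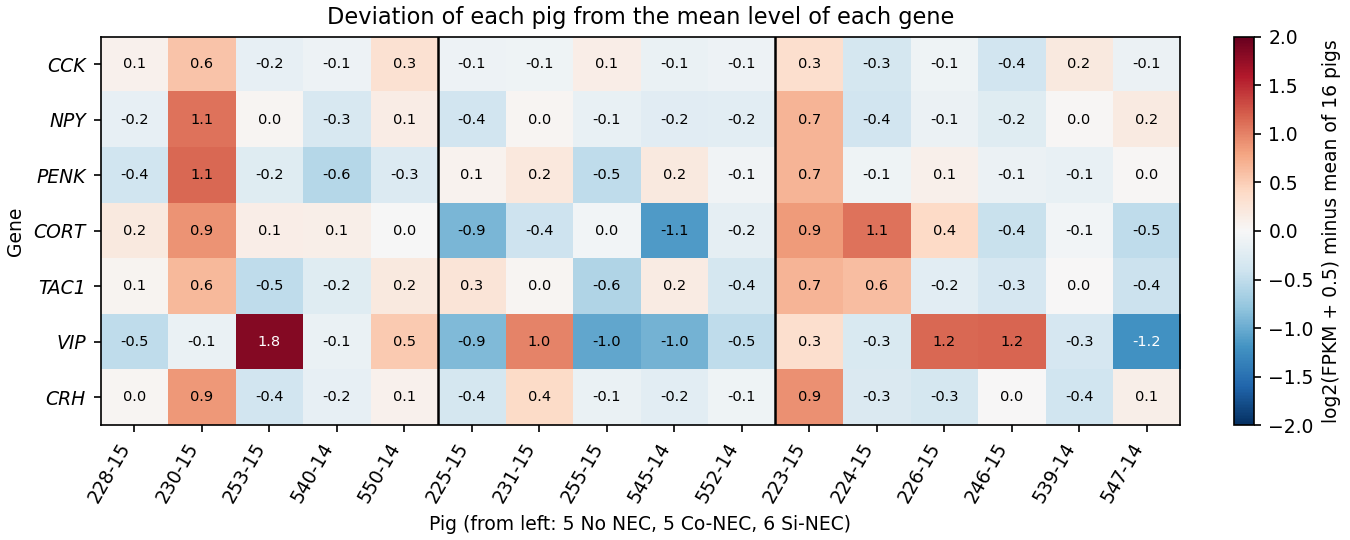
Each cell is the log2(FPKM + 0.5) of 1 pig minus the mean of that gene over the 16 pigs, with pigs in columns by group and genes in rows. The columns of pigs 230-15 and 223-15 are red in all genes but VIP in 230-15, CORT is blue or near 0 in the 5 Co-NEC pigs, and the VIP row has its own pattern with pigs 253-15, 246-15, 226-15 and 231-15 highest.

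The co-variation of the neuropeptide genes among pigs was weaker once these 2 animals were left out. They were singled out for their high values, and leaving out such pigs narrows the range and tends to lower r. Of 21 gene pairs, 6 had a Pearson r with a permutation p adjusted under 0.05 over the 16 pigs and 0 had such a Spearman rho, with a median r of 0.43 and 19 of 21 above 0. The strongest was NPY with CRH, with r = 0.83 (permutation p 0.00094, adjusted 0.00987) and rho = 0.54 (permutation p 0.0319, adjusted 0.290). NPY with CCK had r = 0.79 (permutation p 0.00033, adjusted 0.00693) and rho = 0.59 (permutation p 0.0186, adjusted 0.290). Leaving out the 2 pigs farthest from the median of the first gene, 0 of 21 pairs passed and the median r was 0.17. With NPY, CCK, PENK or CRH as the first gene these were again pigs 223-15 and 230-15, so this was not a separate check for those pairs. Without pigs 223-15 and 230-15, 0 of 21 passed, the median r was 0.04 and 11 of 21 were above 0, with NPY and CRH at 0.40 and NPY and CCK at 0.49. With group means removed, 4 pairs passed by Pearson r and 0 by rho. VIP had r between -0.14 and 0.26 with each of the other 6 genes over all pigs.

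As a description of likeness, the entry whose log2 values ranked most like those of each gene was looked up among 8311 other entries with a symbol over the 16 pigs. For NPY it was RNF167 (rho 0.93), for CCK TRIR (rho 0.86), for PENK C19orf44 (rho 0.89), for TAC1 PPIL3 (rho 0.88) and for CRH RFC4 (rho 0.88). For VIP it was CCN1 (rho 0.80) and for CORT DENND1C (rho 0.84), the latter at a mean of only 0.522 FPKM. These are the highest of many values over pigs that share 2 unusual libraries, and none of these entries is another neuropeptide gene of the list.

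Genes of the same pathway gave no call either. Of the 4 other precursors tested, CARTPT averaged 84.9, NTS 22.8, NPPC 2.77 and GAL 0.72 FPKM, all 4 had a lower mean log2 value in the Si-NEC group than without NEC, with a median of -0.26, and 0 passed. The list of peptide receptors, which also holds the binding protein CRHBP, had 14 genes tested. Of these, 7 had a mean log2 value above and 7 below that of No NEC in the Si-NEC pigs, and 8 above and 6 below in the Co-NEC pigs, with medians of 0.00 in both, and 0 passed. Of 12 processing and granule genes tested, led by CPE (1396 FPKM), the carboxypeptidase that trims precursors, PCSK1N (995 FPKM), a convertase inhibitor, and SCG5 (201 FPKM), 0 passed and 9 had a lower mean log2 value in Co-NEC than in No NEC. CADPS2, which primes dense-core granules for release, was the lowest in p, with 13.5 FPKM in Co-NEC and 9.98 in No NEC pigs (log2 difference 0.42, limma SE 0.12, unadjusted p 0.00469, adjusted p 0.812). CHGA, a granule core protein, averaged 168 FPKM where the small intestine was affected and 142 in Co-NEC pigs (log2 difference 0.24, limma SE 0.10, unadjusted p 0.0329, adjusted p 0.867). PCSK1, a main precursor convertase, and SCG2 were also listed at 0 in all 16 pigs.

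Markers of the interneurons that make several of these peptides gave no call. Of 13 interneuron markers tested, among them GAD1 (88.4 FPKM) and LAMP5 (59.4 FPKM), 0 passed in any comparison. GAD1 averaged 82.4 FPKM in Si-NEC and 94.3 in No NEC pigs (log2 difference -0.19, limma SE 0.08, unadjusted p 0.0432, adjusted p 1), and HTR3A, a receptor of VIP and CCK interneurons, 1.35 FPKM (Si-NEC) and 0.902 FPKM (Co-NEC) (log2 difference 0.42, limma SE 0.18, unadjusted p 0.0384). Pan-neuronal markers (6 tested) and excitatory neuron markers (10 tested) had 0 calls, with medians between -0.04 and 0.05 in the comparisons with No NEC.

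**Figure D5:**
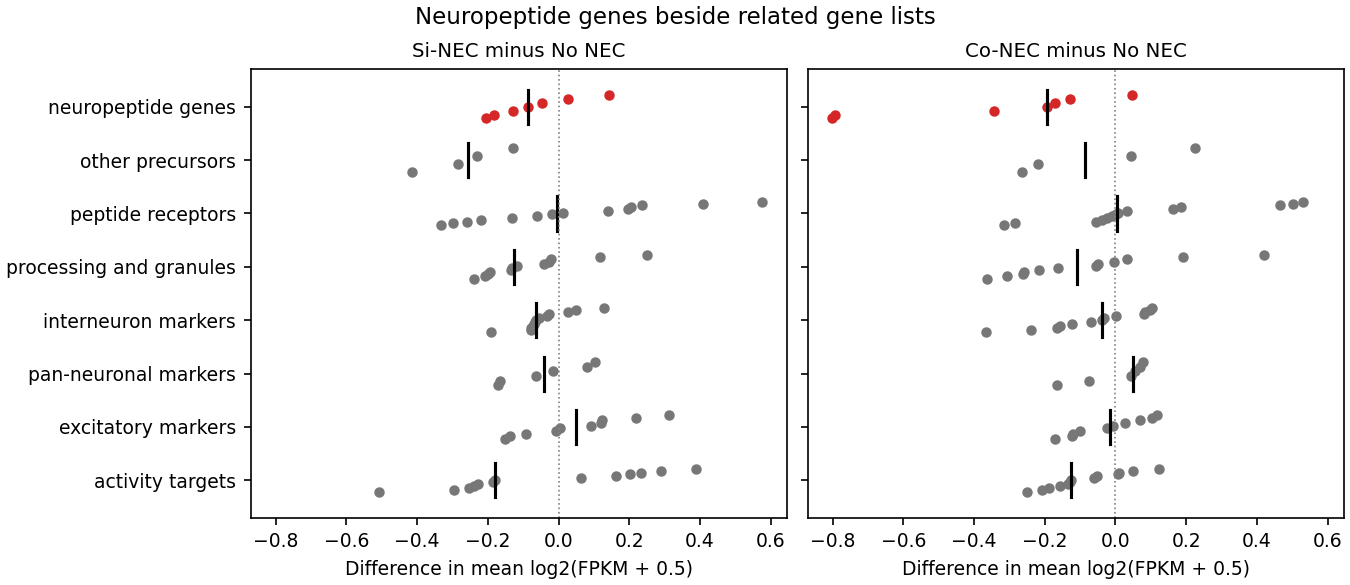
Differences in mean log2(FPKM + 0.5) from No NEC for the neuropeptide genes (red) and 7 related lists (grey), 1 point per tested gene, with a black line at the list median. CORT (-0.80) and VIP (-0.79) in Co-NEC lie left of every other point shown, and no gene in these lists passed the test.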

How the data were processed

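Hippocampal RNA of 16 pigs was sequenced on an Illumina platform. Per the labels and methods, the authors aligned reads to Sscrofa10.2 with TopHat2 2.1.1, and FPKM was made with Cufflinks 2.2.1. The deposited FPKM table was used as it stands, and scaling between pigs is not given in the sources used here. It held 24594 rows, of which 1779 identical ones were dropped. IDs were named through a reference names table.

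Tests used the entries that averaged 0.5 FPKM or more, on log2(FPKM + 0.5), a scale that understates folds of low genes, with limma 3.58.1 in R 4.3.3 (lmFit, eBayes with trend), each pair of groups by itself, adjusted by Benjamini-Hochberg and read at 0.2, the level the study used. Permutation tests were two-sided, in Python 3.11.15 with scipy 1.17.1, exact for groups and with 100000 permutations for correlations. The fits were tested on simulated data. FPKM keeps no read counts, and low values shared no common step (at most 10.7% shared 1 ratio), so no depth or counting error could be computed. Each pig was 1 sample, taken as an independent replicate.

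The genes and lists were chosen with earlier results of these data known. Named are all 7 genes found and, from the other lists, the 3 with the highest mean and those with the smallest unadjusted p under 0.05, besides receptors and markers of the peptides described, which were chosen after their values were seen. Other genes that this rule names are not reported here. The comparison of pigs 223-15 and 230-15 with the others and the fits without both were also added after seeing the data. Alternatives were pseudocounts of 0.1 and 1, no filter, a minimum mean of 1 FPKM, median-of-ratios scaling, scaling to GAD1, GAD2 and SLC32A1, 1 fit of all groups, sex or number suffix as covariates, eBayes without trend, and leaving out each pig.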

Additional observations from a re-analysis of the deposited data

Results flagged for a closer look

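The highest and the lowest pig of each of the 21 sets formed by the 7 neuropeptide genes and 3 groups were compared with the rest by Dixon's test at the 95% level. Chance alone meets it at either end in about 1 in 20 sets of normally distributed values. The test was run on FPKM and not on log2 values, and a skew toward high values raises that rate at the upper end. In 9 sets the highest pig stood apart, and in none the lowest. The genes share the same pigs, so the sets are not independent.

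No NEC pig 230-15 was set apart in 4 genes, at 309 FPKM for NPY, 164 for PENK, 17.5 for CRH and 30.6 for CORT. Si-NEC pig 223-15 was set apart at 119 FPKM for PENK and 18.2 for CRH. These 2 pigs also had the highest summed FPKM and the lowest correlations with the other pigs.

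The other 3 pigs were set apart in 1 gene each. VIP reached 44.1 FPKM in No NEC pig 253-15 and 24.5 FPKM in Co-NEC pig 231-15, while CCK reached 172 FPKM in Co-NEC pig 255-15, in a group whose other 4 pigs lay close together.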

How the results depend on the processing

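The depth behind each FPKM value is unknown, and 5 or 6 pigs per group leave intervals from about 0.3 log2 units either side for CCK to about 1 for VIP. No paired analysis was possible because each pig belonged to a single group and the labels give no litters. Under the alternatives other than leaving out a single pig, 214 values of single neuropeptide genes kept their direction and their side of the threshold, and scaling to GAD1, GAD2 and SLC32A1 turned the other 3, all near 0, to 0.0238 for CRH and 0.0652 for CORT in Si-NEC against No NEC and 0.0529 for CCK in Si-NEC against Co-NEC. The difference of CORT between Co-NEC and No NEC stayed between -0.83 and -0.75. Over all entries the number called for Si-NEC against No NEC was 1, and 2 with the number suffix as covariate. For Co-NEC against No NEC it was 1, and 4 without a filter. For Si-NEC against Co-NEC it was 2, and 1 at an adjusted p under 0.05, with a pseudocount of 0.1, without a filter, with all groups in 1 fit, and with sex or suffix as covariate. Leaving out single pigs gave 1 to 3, 1 to 2 and 1 to 12 called entries in the 3 comparisons, against 1, 1 and 2 with all pigs. In the first it was 3 without 540-14, and in the second 2 without 225-15 or 540-14. In the third it was 12 without 547-14, 5 without 255-15, and 1 without 225-15, 545-14, 552-14, 223-15, 224-15, 246-15 or 539-14. The sign turned under some single omission for differences near 0. In Si-NEC against No NEC these ran from -0.26 to 0.10 for NPY, -0.39 to 0.20 for VIP, -0.11 to 0.18 for TAC1, -0.27 to 0.11 for CRH and -0.22 to 0.11 for CORT. In Co-NEC against No NEC they ran from -0.0811 to 0.35 for PENK, -0.26 to 0.0240 for TAC1 and -0.29 to 0.0238 for CRH. In Si-NEC against Co-NEC they ran from -0.0913 to 0.0512 for CCK, -0.0249 to 0.16 for PENK and -0.0994 to 0.20 for CRH. The cause was not tested.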

Other observations

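Activity and CREB target genes, which in neurons include several neuropeptide genes, were read beside the precursors. Of 13 tested, 0 passed in any comparison, with median log2 differences of -0.18 for Si-NEC and -0.13 for Co-NEC against No NEC. In Si-NEC against No NEC, 6 were higher, among them ATF3 (0.39, limma SE 0.36) and FOS (0.29, limma SE 0.34), and 7 were lower. BDNF, a growth factor induced by neuronal activity, averaged 10.22 FPKM in Si-NEC, 13.2 in Co-NEC and 14.8 in No NEC pigs. Its log2 difference was -0.51 for Si-NEC against No NEC (limma SE 0.16, unadjusted p 0.00856, adjusted p 1) and -0.37 for Si-NEC against Co-NEC (limma SE 0.13, unadjusted p 0.0124). PER1, a clock gene with CREB sites, averaged 32.0 FPKM (Si-NEC) and 24.7 FPKM (Co-NEC) (log2 difference 0.36, limma SE 0.14, unadjusted p 0.0247). NEUROD1, a factor of young granule cells, averaged 9.71 FPKM in Si-NEC, 7.74 in Co-NEC and 7.76 in No NEC pigs (log2 difference from No NEC 0.31, limma SE 0.12, unadjusted p 0.0243, adjusted p 1).

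Glial and leukocyte markers gave 0 calls as well. Of 5 microglia and leukocyte markers tested, the log2 difference Si-NEC minus No NEC was positive for 2 and negative for 3 (median -0.03). Apart from S100A8, it was 0.004 for C1QA, -0.03 for PTPRC, -0.09 for CX3CR1 and -0.30 for P2RY12. S100A8, a neutrophil calgranulin, averaged 12.5 FPKM in Si-NEC, 1.37 in Co-NEC and 1.74 in No NEC pigs (log2 difference from No NEC 2.24, limma SE 0.55, unadjusted p 0.00148, adjusted p 1). OPALIN, a gene of mature oligodendrocytes, averaged 32.4, 48.1 and 53.3 FPKM in the same groups (log2 difference of Si-NEC from No NEC -0.67, limma SE 0.27, unadjusted p 0.0286, adjusted p 1). PDGFRA, a gene of oligodendrocyte precursors, and SYT1, a synaptic vesicle gene, had log2 differences of -0.33 (limma SE 0.14, unadjusted p 0.0365) and -0.23 (limma SE 0.09, unadjusted p 0.0326) between Si-NEC and Co-NEC, both with an adjusted p of 0.867. Other genes of their lists went the other way, with 0.29 for CSPG4 (limma SE 0.13, unadjusted p 0.0518) and 0.15 for SYN1 (limma SE 0.09, unadjusted p 0.121). In this comparison 1 oligodendrocyte lineage marker was higher and 3 lower in Si-NEC, and 4 pan-neuronal markers were higher and 2 lower.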
